A study of Mus musculus with 4 samples.

Results

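The genes described here write, erase and read DNA methylation. They were Dnmt1, Dnmt3a, Dnmt3b, Tet1, Tet2, Tet3, Uhrf1 and Mbd2. A probe set was taken where the platform annotation gave it exactly 1 gene symbol among these 8, which found 11 of the 35556 probe sets on the array and all 8 genes among the 19938 with a single-symbol probe set. Tet1 had 3 probe sets, Tet3 had 2 and each other gene had 1. RNA came from Flt3-negative LSK cells of mouse bone marrow, which are lineage-negative, Sca-1 positive and c-Kit positive cells sorted for absence of surface Flt3 and rich in blood stem cells. All mice carried Mx1-Cre, a recombinase under an interferon-inducible promoter, and all received pIpC, a double-stranded RNA analogue that induces interferon and so Cre. The mice labelled GABPα-deficient were Mx1Cre-GABPa(FL/-), with 1 floxed and 1 null allele of Gabpa, and the controls were Mx1Cre-GABPa(FL/+), with 1 floxed and 1 wild-type allele, so Cre could also act on an allele in the controls. Mice of both groups were 6 to 8 weeks old, came from a stock backcrossed for 4 generations to C57/BL6, and were sampled 4 days after the last pIpC. Each group had 2 whole-transcript arrays of the Mouse Gene 1.0 ST type, and whether an RNA sample stood for 1 animal or several is unstated in the labels.

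DNA methylation in mammals sits mainly on the cytosine of CpG dinucleotides. DNMT3A and DNMT3B place new marks, DNMT1 copies existing marks onto the new strand after replication, and UHRF1 finds the half-methylated sites and brings DNMT1 to them. The TET enzymes oxidise methylcytosine and so start its removal, and MBD2 binds methylated CpG and recruits the NuRD repressor complex. In blood, loss of Dnmt3a or Tet2 in mice alters the balance between renewal and differentiation of stem cells, and both genes are often mutated in human clonal haematopoiesis.

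GABP is an ETS-family factor, and ETS factors bind DNA around a GGAA core, so promoters are shown for Dnmt3a, Dnmt3b and Tet3, the genes with a probe set at an unadjusted p under 0.05 below, and for Tet2, the member without that core. The sequences are from RefSeq on GRCm38.p6, 250 bases before and 50 after a transcript start, written 5′ to 3′ on the gene's strand, with every GGAA on either strand (GGAA or TTCC) in capitals. Dnmt3a has 3 entries on the plus strand, and the one at chr12:3806730-3807029 is shown. Dnmt3b is at chr2:153649199-153649498 on the plus strand, Tet3 at chr6:83441629-83441928 on the minus strand and Tet2 at chr3:133544341-133544640 on the minus strand.
Dnmt3a: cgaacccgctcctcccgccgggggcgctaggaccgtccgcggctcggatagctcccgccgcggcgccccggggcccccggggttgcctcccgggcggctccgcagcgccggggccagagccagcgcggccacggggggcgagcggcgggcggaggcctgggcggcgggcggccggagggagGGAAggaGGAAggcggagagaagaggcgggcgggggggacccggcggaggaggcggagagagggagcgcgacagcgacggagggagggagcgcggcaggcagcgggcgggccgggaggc
Dnmt3b: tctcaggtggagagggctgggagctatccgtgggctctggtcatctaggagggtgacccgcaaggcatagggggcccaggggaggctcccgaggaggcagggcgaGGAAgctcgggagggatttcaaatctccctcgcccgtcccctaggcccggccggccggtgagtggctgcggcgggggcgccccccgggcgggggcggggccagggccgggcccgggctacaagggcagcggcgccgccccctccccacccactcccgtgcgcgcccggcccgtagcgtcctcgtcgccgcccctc
Tet3: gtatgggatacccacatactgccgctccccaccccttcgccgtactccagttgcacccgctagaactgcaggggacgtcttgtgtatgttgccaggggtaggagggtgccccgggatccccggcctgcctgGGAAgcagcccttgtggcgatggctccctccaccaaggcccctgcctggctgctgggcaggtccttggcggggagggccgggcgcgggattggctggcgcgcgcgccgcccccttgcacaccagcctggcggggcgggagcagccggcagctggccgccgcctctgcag
Tet2: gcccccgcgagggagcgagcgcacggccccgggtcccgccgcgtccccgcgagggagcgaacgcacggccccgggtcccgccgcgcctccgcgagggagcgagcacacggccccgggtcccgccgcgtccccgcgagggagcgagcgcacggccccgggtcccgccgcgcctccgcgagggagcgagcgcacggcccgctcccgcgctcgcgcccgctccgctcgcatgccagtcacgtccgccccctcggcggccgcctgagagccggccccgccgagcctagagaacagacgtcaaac

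The table held 12 promoters of 7 members, and Mbd2 had no entry. The longer motif CCGGAAG, of the kind GABP binds, was found on either strand in 0 of the 12, against 8.86% of all 32851 promoters in the table. CCGGAAGT was found in 0 of the 12, against 3.89% of all. By gene, CCGGAAG was found in 0 of the 7 members, against 9.93% of all genes with a promoter. The 12 windows are not all separate, since Dnmt1, Dnmt3a and Uhrf1 have several each and some of Dnmt3a overlap. With so few windows, a count of 0 is not read as a lack of the motif. The 4-letter core GGAA, which both longer motifs contain, was in 11 of the 12, against 96% of all, with 1 copy each in Dnmt3b and Tet3, 2 in the Dnmt3a promoter shown and 0 in Tet2. These promoters were rich in CpG: 11 of 12 held more than the median of 7.0 CpG in 300 bases, with 57 in Tet2, 46 in the Dnmt3a promoter shown, 30 in Dnmt3b and 22 in Tet3. The exception, with 2 CpG and 9 copies of GGAA, was the outermost of 3 Dnmt1 entries. A motif match describes the letters of the window only.

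The targeted gene was read first, as a check of the labels. Gabpa (probe set 10436678) read 6.43 and 7.85 on the arrays labelled GABPα-deficient, against 8.43 and 7.28 on the control arrays, so replicate 2 labelled deficient lay above control replicate 2. Which exons were deleted is unstated in the labels, so this probe set may say nothing about the deletion, and the groups are called by their labels. Of the sorting markers, Kit read 7.70 and 8.50 on the arrays labelled deficient, against 10.21 and 10.21 on the controls. Flt3 read 5.68 and 5.95 on the arrays labelled deficient and 8.43 and 9.27 on the controls. The gene of Sca-1, Ly6a, was not analysed here for want of a single-symbol probe set. Median log2 values were 5.93 and 6.01 on the arrays labelled deficient and 5.87 and 5.91 on the controls. Upper quartiles went the other way, at 7.24 and 7.18 on the arrays labelled deficient and 7.39 and 7.33 on the controls.

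The comparison asked how these genes differed in stem-cell-enriched marrow between mice labelled GABPα-deficient and controls. In limma's fit across all probe sets, 0 of the 11 probe sets passed an adjusted p under 0.05, as did 0% of the whole table. On the array scale, 10 of the 11 values were below 0, where 33.6% of all probe sets were. On the arrays labelled deficient, 3 of 11 were lower and 0 were higher at an unadjusted p under 0.05, against 5.25% lower and 6.64% higher of all probe sets. They belonged to Tet3, Dnmt3b and Dnmt3a, and the count was 1 without deficient replicate 1. Over the whole table the split of 1865 lower and 2360 higher moved with the scaling, to 2349 and 1191 after cyclic loess and to 1411 and 4601 when upper quartiles were subtracted, while the members' counts stayed at 3 lower and 0 higher under both. The groups did not overlap, with the arrays labelled deficient lower, for 7 of 11 probe sets, against 14% of all, and for 0 of 11 in the other direction, against 38.9% of all. Probe sets of the same gene share their RNA and are not independent. The members were chosen with earlier results of these data known. The shares beside their counts are therefore a description, not a test of an excess. By gene, each with its brightest probe set, 2 of 8 were lower (Dnmt3a and Dnmt3b) and 0 higher at that unadjusted threshold. All genes had 6.36% lower and 6.99% higher. The groups did not overlap for 5 lower and 0 higher of the 8, against 15.2% and 42.9% of all genes. The median by gene was −0.70, against 0.16 over all genes. The median difference was −0.84 over the 11 probe sets, against 0.15 over all, and −0.99 relative to that shift of the whole table. The members' median was −0.42 without control replicate 1, and after cyclic loess the medians were −0.90 over the members and −0.0045 over all. With upper quartiles subtracted they were −0.70 over the members and 0.29 over all. Without the dimmer 50% of probe sets, a cut that removed Tet2, they were −0.88 and 0.079, so the shift of all probe sets depended on brightness.

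**Figure D1:**
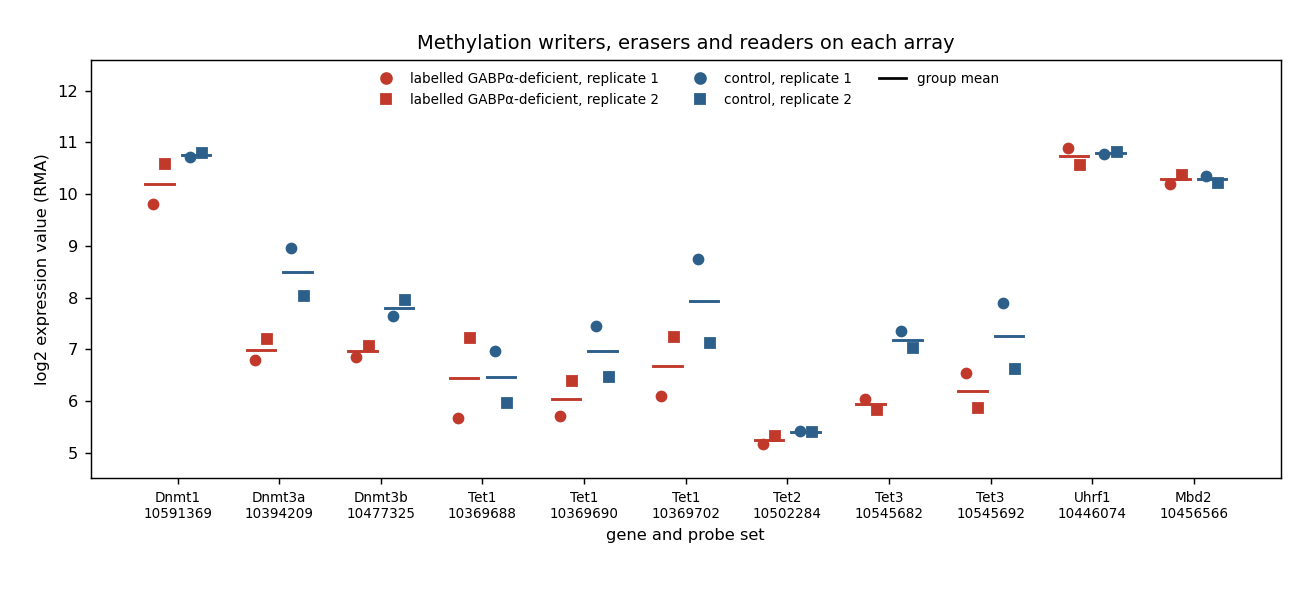
Log2 expression value (vertical axis) of the 11 probe sets (horizontal axis) on each array, with the arrays labelled GABPα-deficient in red on the left and controls in blue on the right of each pair, and a line at each group mean. Dnmt3a, Dnmt3b and Tet3 probe set 10545682 lie apart by at least 0.58, while the groups of Uhrf1 and Mbd2 overlap.

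Among the writers of new marks, Dnmt3a, a de novo methyltransferase, read 6.79 and 7.20 on the arrays labelled deficient, against 8.96 and 8.03 on the controls. Both arrays labelled deficient lay below both controls, with a gap of 0.83 between the nearest arrays. The means were 6.99 ± 0.29 on the arrays labelled deficient and 8.49 ± 0.66 on the controls (SD, n = 2 each), a log2 difference of −1.50 (SE 0.39, 95% interval −2.62 to −0.39, limma adjusted p = 0.395). This corresponds to 35.3% of the control level, and 2.78% of all probe sets had a lower difference. Without control replicate 1, which was the highest array, the log2 difference was −1.04, and without control replicate 2 it was −1.97.

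Dnmt3b, the other de novo methyltransferase, read 6.85 and 7.07 on the arrays labelled deficient, against 7.65 and 7.96 on the controls. The groups lay 0.58 apart and the arrays of each group lay close together. Means were 6.96 ± 0.16 on the arrays labelled deficient and 7.80 ± 0.22 on the controls (SD, n = 2 each), a log2 difference of −0.84 (SE 0.19, 95% interval −1.39 to −0.30, limma adjusted p = 0.37), which is 55.7% of the control level. With 1 array left out it ran from −0.999 to −0.69.

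Dnmt1, the maintenance methyltransferase, read 9.81 and 10.59 on the arrays labelled deficient, against 10.72 and 10.80 on the controls. Replicate 2 labelled deficient lay only 0.13 below the nearer control, and replicate 1 lay well below. The log2 difference was −0.56 (SE 0.32, 95% interval −1.45 to 0.33, limma adjusted p = 0.47), and it was −0.17 without deficient replicate 1 and −0.95 without deficient replicate 2. Uhrf1, the partner that guides DNMT1 to replicated DNA, read 10.89 and 10.57 on the arrays labelled deficient, against 10.78 and 10.81 on the controls. Both controls lay between the arrays labelled deficient. The Uhrf1 log2 difference was −0.065 (SE 0.18, 95% interval −0.57 to 0.44, limma adjusted p = 0.857), an interval that leaves room for a difference of either sign, and the value was 0.080 when upper quartiles were subtracted.

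Dnmt1 and Uhrf1 are used mostly by cells in S phase, so a list of 18 replication genes was set beside them, of which 17 were measured. Its mean log2 level was 9.26 and 9.07 on the arrays labelled deficient and 9.21 and 9.16 on the controls. Of the 17, 0 were lower and 2 were higher on the arrays labelled deficient at that unadjusted threshold, against 6.36% and 6.99% of all genes, and the median difference was 0.15. The genes at that threshold were Cdc6, a loader of the helicase, at 0.48 and Rrm2, a ribonucleotide reductase subunit, at 0.95. Of the helicase subunits, Mcm2, Mcm3, Mcm4 and Mcm7 differed by −0.079, −0.084, −0.39 and 0.054 with overlapping groups, while Mcm5 at 0.48 and Mcm6 at −0.46 did not overlap. The largest differences of the list were those of Prim1, −1.60 (SE 0.84), and Pola1, −1.17 (SE 0.59), both without overlap. The groups did not overlap for 3 lower and 4 higher genes of the 17, against 15.2% lower and 42.9% higher of all genes. The similar list means thus average differences of both signs. Dnmt1 minus the mean of this list was 0.55 and 1.52 on the arrays labelled deficient, against 1.51 and 1.64 on the controls. The groups overlapped by this measure, and replicate 1 labelled deficient alone was low. Uhrf1 minus the same mean was 1.63 and 1.50 on the arrays labelled deficient, against 1.58 and 1.65 on the controls, and also overlapped.

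Of the erasers, Tet3 had the smallest unadjusted p. Tet3 probe set 10545682 read 6.04 and 5.83 on the arrays labelled deficient, against 7.35 and 7.02 on the controls. The groups lay 0.98 apart, the widest gap among the 11 probe sets. Means were 5.94 ± 0.15 on the arrays labelled deficient and 7.19 ± 0.23 on the controls (SD, n = 2 each), a log2 difference of −1.25 (SE 0.20, 95% interval −1.81 to −0.70, limma adjusted p = 0.291), or 42% of the control level, and its unadjusted p of 0.00365 ranked 443 among all probe sets. It ran from −1.42 to −1.09 with 1 array left out. The other Tet3 probe set, 10545692, read 6.53 and 5.86 on the arrays labelled deficient, against 7.89 and 6.62 on the controls, with a gap of only 0.082. Its log2 difference was −1.06 (SE 0.54, limma adjusted p = 0.453), and −0.42 without control replicate 1, so the probe sets had the same sign but unequal spread.

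Tet1, which is best known from embryonic stem cells, had probe sets that disagreed. Tet1 probe set 10369702, the brightest, read 6.10 and 7.24 on the arrays labelled deficient, against 8.74 and 7.12 on the controls, and the groups overlapped. Tet1 probe set 10369690 read 5.70 and 6.38 on the arrays labelled deficient and 7.46 and 6.46 on the controls, with a gap of 0.080. Tet1 probe set 10369688 read 5.66 and 7.21 on the arrays labelled deficient and 6.96 and 5.96 on the controls, and the groups overlapped widely. The Tet1 log2 differences were −1.26 (SE 0.73), −0.92 (SE 0.46) and −0.021 (SE 0.68) in that order, with limma adjusted p of 0.476, 0.448 and 0.989. Without control replicate 1 the first was −0.45 and the second −0.42, and without deficient replicate 1 they were −0.69 and −0.58. Both were farther from 0 when control replicate 2 was left out, at −2.08 and −1.42. The last turned positive, at 0.48, without control replicate 1 and at 0.75 without deficient replicate 1, so these data give no settled direction for it.

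Tet2, the TET gene most tied to blood stem cells, read 5.17 and 5.32 on the arrays labelled deficient, against 5.42 and 5.40 on the controls. Every one of these values lay below the median of its array, in the dim part of the table. The log2 difference was −0.16 (SE 0.15, 95% interval −0.57 to 0.26, limma adjusted p = 0.595). No detection calls were used here. The value was −0.38 after cyclic loess and −0.014 when upper quartiles were subtracted.

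Mbd2, whose product binds methylated CpG, read 10.20 and 10.38 on the arrays labelled deficient, against 10.35 and 10.22 on the controls. The groups interleaved. The Mbd2 log2 difference was 0.0016 (SE 0.16, 95% interval −0.45 to 0.45, limma adjusted p = 0.997), and its sign turned to −0.079 when array medians were subtracted.

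**Figure D2:**
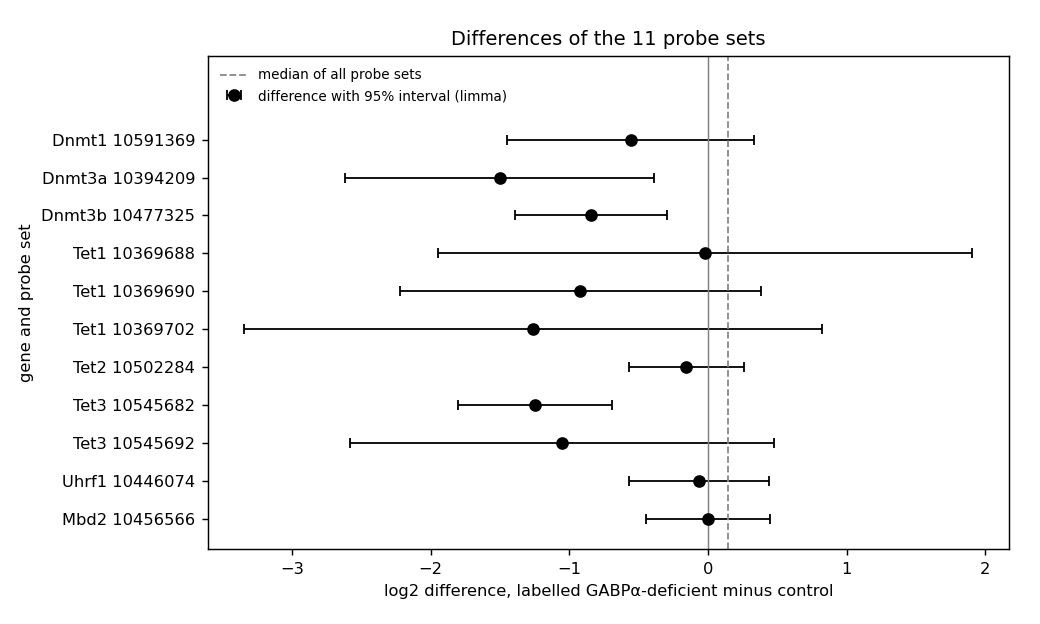
Log2 difference, arrays labelled GABPα-deficient minus controls (horizontal axis), of each probe set (vertical axis), with its 95% interval from limma. The intervals of Dnmt3a, Dnmt3b and Tet3 probe set 10545682 lie below 0, before any adjustment for the number of probe sets, and the dashed line is the median of all probe sets, 0.15.

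Differences between members taken within an array do not depend on a scaling that shifts the whole array. Dnmt3a minus Dnmt1 was −3.02 and −3.39 on the arrays labelled deficient, against −1.76 and −2.77 on the controls, so it was lower on both arrays labelled deficient. Tet2 minus Dnmt3a was −1.62 and −1.87 on the arrays labelled deficient and −3.54 and −2.63 on the controls, and the groups did not overlap either. Mbd2 minus Dnmt1 was 0.38 and −0.21 on the arrays labelled deficient and −0.37 and −0.58 on the controls, again without overlap. Tet2 itself differed by only −0.16 and Mbd2 by 0.0016, so their pairs mostly repeat the differences of Dnmt3a and Dnmt1. No background share was computed for such pairs. For Dnmt3a minus Dnmt3b, Tet2 minus Tet3, Tet2 minus Tet1 and Dnmt1 minus Uhrf1 the groups overlapped. These values are descriptions, since relabelling 4 arrays in pairs cannot give a two-sided exact permutation p below 0.333.

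The arrays that set each difference were not the same for every gene. Replicate 1 labelled deficient was the lower of its pair for Dnmt1, Dnmt3a, Dnmt3b, Tet2, Mbd2 and all Tet1 probe sets, and the higher for Uhrf1 and both Tet3 probe sets. Control replicate 1 was the higher control for Dnmt3a, Tet2, Mbd2 and every Tet1 and Tet3 probe set, and the lower for Dnmt1, Dnmt3b and Uhrf1. Where an array was left out, the log2 difference stayed below 0 in each of the 4 cases for Dnmt1, Dnmt3a, Dnmt3b, Tet2, both Tet3 probe sets and Tet1 probe sets 10369690 and 10369702. It changed sign in at least 1 case for Tet1 probe set 10369688, Uhrf1 and Mbd2.

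**Figure D3:**
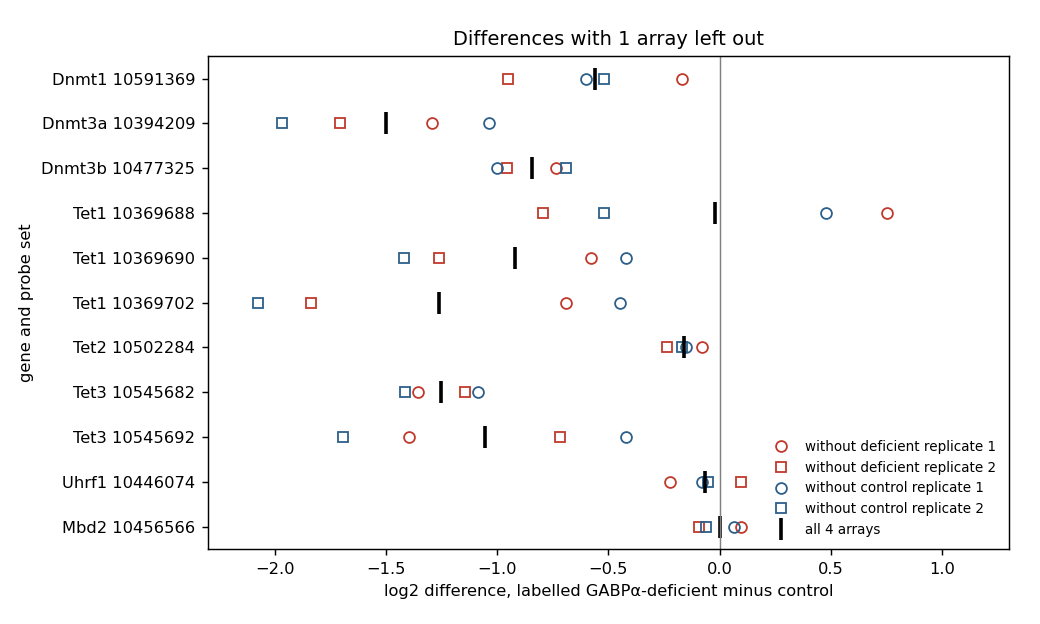
Log2 difference of each probe set with all 4 arrays (black bar) and with 1 array left out (open symbols, red for an array labelled GABPα-deficient and blue for a control). Dnmt3b and Tet3 probe set 10545682 have the tightest spread among the members with a difference beyond −0.5, and Tet1 probe set 10369688 runs from −0.79 to 0.75.

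By profile over the 4 arrays, each centred on its own mean, the genes closest to Dnmt3a were 2610301B20Rik, Uhrf2 and Cbl, at root mean square distances of 0.015, 0.036 and 0.041 on the log2 scale. Uhrf2, a paralog of Uhrf1, read 6.54 and 7.03 on the arrays labelled deficient, against 8.69 and 7.81 on the controls, and 72 genes lay within 0.2 of Dnmt3a. The closest to Dnmt1 were Mxd4, Tsg101 and Lrrc58, at 0.022, 0.041 and 0.047, with 293 genes within 0.2. For Tet2 they were Morc2a, Vmn2r120 and Retreg1, at 0.0058, 0.010 and 0.019, among 5030 genes within 0.2, and for Uhrf1 they were Fhod1, Car13 and Zfyve1, at 0.0054, 0.016 and 0.017, among 5419. With 4 arrays many genes share any profile, and for Tet2 and Uhrf1, which varied little, the genes named are a few of many. Among the members themselves, by the brightest probe set, Tet2 and Mbd2 were closest at 0.09 and Tet1 and Uhrf1 farthest at 0.984.

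Other genes of the pathway were taken from 6 lists with 71 genes, of which 64 had a single-symbol probe set. These lists too were chosen with earlier results of these data known, so their counts are descriptions. On the arrays labelled deficient 7 of them were lower and 3 were higher at an unadjusted p under 0.05, against 6.36% and 6.99% of all genes, and 0 passed an adjusted p under 0.05. The groups did not overlap for 18 lower and 16 higher genes of the 64, against 15.2% lower and 42.9% higher of all genes. The median log2 difference was −0.17, or −0.32 relative to all probe sets, and it was −0.029 when upper quartiles were subtracted. With 1 array left out the median was closest to 0, at −0.068, without control replicate 1, where the counts were 1 lower and 1 higher. Without deficient replicate 2 the median was −0.11 and the counts were 10 and 7. Without deficient replicate 1 the median was −0.080, with 6 lower and 1 higher, and leaving out control replicate 2 gave −0.15, with 7 lower and 1 higher.

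Of 11 partners and paralogs of the methyltransferases, 1 was lower and 0 higher at that threshold, against 6.36% and 6.99% of all genes. Counts this small, here and in the lists below, are not read as results about a list. The median difference was −0.22. Uhrf2 differed by −1.46 (SE 0.39). Hells, a remodeller needed for normal methylation, read 4.58 and 5.31 on the arrays labelled deficient, against 7.53 and 5.33 on the controls, a difference of −1.49 (SE 0.85), with only 0.023 between the nearest arrays of the groups. Cdca7, which recruits Hells to chromatin, differed by −0.67 (SE 0.25) and Dnmt3l, a cofactor of de novo methylation in germ cells, by 0.34 (SE 0.16). Of 8 other measured methylcytosine readers, 0 were lower and 1 higher, against the same shares of all genes. Zbtb4, a zinc finger reader, differed by 0.41 (SE 0.14), Mbd1 by −0.36, Mbd6 by 0.69 and Zfp57, which protects imprints, by −0.31.

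Among 11 subunits of NuRD, the complex that MBD2 joins, 1 was lower and 0 higher, against 6.36% and 6.99% of all genes. Their median was −0.27. Chd4, its remodelling ATPase, read 10.02 and 9.87 on the arrays labelled deficient, against 10.68 and 10.61 on the controls, a difference of −0.70 (SE 0.15, limma adjusted p = 0.349). The deacetylase gene Hdac2 read 8.05 and 9.76 on the arrays labelled deficient, against 10.27 and 10.05 on the controls, a difference of −1.26 (SE 0.64). Chd3 and Rbbp4 differed by −0.27 and −0.31.

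Of 16 measured genes that supply TET enzymes, partner them or repair oxidised cytosine, 2 were lower and 0 higher. The shares of all genes were 6.36% and 6.99%, and the median of the list was 0.15. Idh1, the cytosolic enzyme that makes the TET cosubstrate 2-oxoglutarate, read 6.40 and 6.97 on the arrays labelled deficient, against 8.83 and 7.81 on the controls, a difference of −1.63 (SE 0.44, limma adjusted p = 0.4). Its mitochondrial relative Idh2 read 10.16 and 9.24 on the arrays labelled deficient and 10.22 and 10.13 on the controls, with overlap. Parp1, a DNA break sensor, differed by −0.83 (SE 0.17), Neil2, a DNA glycosylase, by 0.39 and Cxxc1, a binder of unmethylated CpG, by 0.57.

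Of 12 measured genes of methyl donor supply, 1 was lower and 2 were higher, against 6.36% and 6.99% of all genes. Their median was 0.23. Mthfd1, a folate enzyme that feeds the methionine cycle, read 10.13 and 10.11 on the arrays labelled deficient, against 8.80 and 8.62 on the controls, a difference of 1.41 (SE 0.15, limma adjusted p = 0.221). It was the pathway gene with the smallest unadjusted p. Mat2b, the regulatory subunit of the enzyme that makes S-adenosylmethionine, differed by 0.46 (SE 0.14), Ahcyl1, a relative of the enzyme that clears its product, by −1.21 (SE 0.39) and Shmt1 by −0.42. Of 6 measured deaminase and Gadd45 genes, 2 were lower and 0 higher, against the same shares of all genes. Apobec1 differed by −0.86 (SE 0.24), Apobec3 by −0.46 (SE 0.14), Apobec2 by 0.52 and Gadd45g by 0.60.

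**Figure D4:**
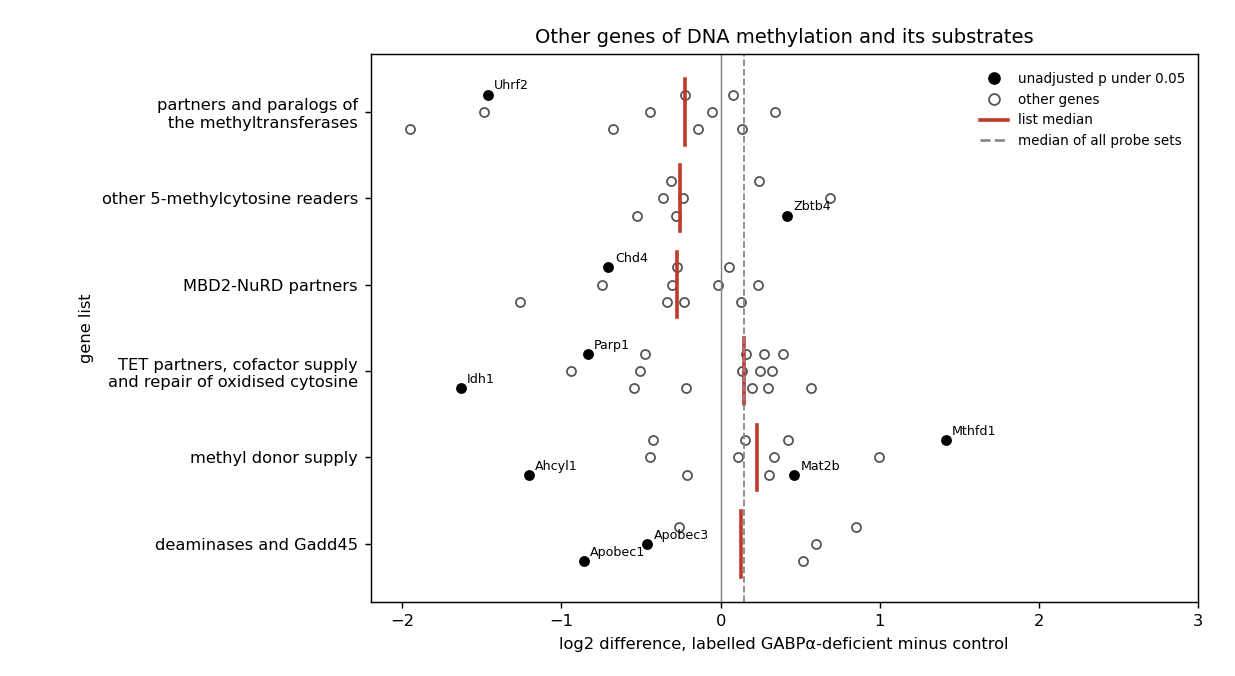
Log2 difference, arrays labelled GABPα-deficient minus controls (horizontal axis), of the 64 measured pathway genes in 6 lists (vertical axis), each point 1 gene by its brightest probe set. Filled points have an unadjusted p under 0.05, red bars are list medians from −0.27 to 0.23, and the dashed line is the median of all probe sets.

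Marker lists of other cells differed in level between the groups, and their part in the differences above was not tested. The marker lists were also chosen with earlier results of these data known, so their counts are descriptions. In sorted bulk samples, fewer cells of a type and less RNA per cell cannot be told apart. Of all genes, 32.3% were below 0 and 67.7% above, and 6.36% were lower and 6.99% higher at an unadjusted p under 0.05, which is the background for the counts that follow. The mean log2 level of the 8 measured stem and progenitor genes was 6.45 to 6.76 on the arrays labelled deficient, against 8.44 to 8.69 on the controls, with 8 of 8 genes below 0 and 6 at an unadjusted p under 0.05. Kit and Flt3, whose values are given above, are among these 6, although the sort was for cells without surface Flt3. Cd34, a surface sialomucin of progenitors, differed by −3.54 (SE 0.22). Erythroid markers stood at 7.73 to 8.68 on the arrays labelled deficient, against 6.40 to 6.47 on the controls, with 9 of 9 measured genes above 0 and 6 at an unadjusted p under 0.05, among them Klf1, an erythroid transcription factor, at 1.77 (SE 0.14). Macrophage markers stood at 6.998 to 7.73 on the arrays labelled deficient, against 6.14 to 6.31 on the controls, with 12 of 12 above 0 and 6 at that threshold, and Adgre1, the F4/80 antigen, differed by 0.75. Stromal and endothelial markers stood at 6.76 or above on the arrays labelled deficient, against 6.14 or below on the controls, with 9 of 12 above 0, 5 higher at that threshold and a median difference of 0.45. Sparc, a matrix glycoprotein, had the largest difference of that list, 3.80. Granulocyte markers overlapped at 8.93 to 9.32 on the arrays labelled deficient and 8.68 to 9.16 on the controls, with 6 of 10 genes above 0, a median difference of 0.50, and 1 lower and 0 higher at that threshold. S100a9, an alarmin of mature neutrophils, stood at 1.003 and Elane, the elastase of immature ones, at −0.64. B and plasma cell markers stood at 7.14 to 7.44 on the arrays labelled deficient and 6.66 to 6.72 on the controls. Of these 10 measured genes, 9 were above 0, and 0 were lower and 2 higher at that threshold. T and NK cell markers overlapped, at 5.96 to 6.22 on the arrays labelled deficient and 5.96 to 5.98 on the controls. Of these 8 measured genes, 6 were above 0 and 2 below, and 0 were lower and 1 higher at that threshold. Cd3e differed by 0.25, while Nkg7 had the largest difference of the list, −1.98 (SE 0.74), in the other direction. Without detection calls, absence of a marker could not be read from these values.

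**Figure D5:**
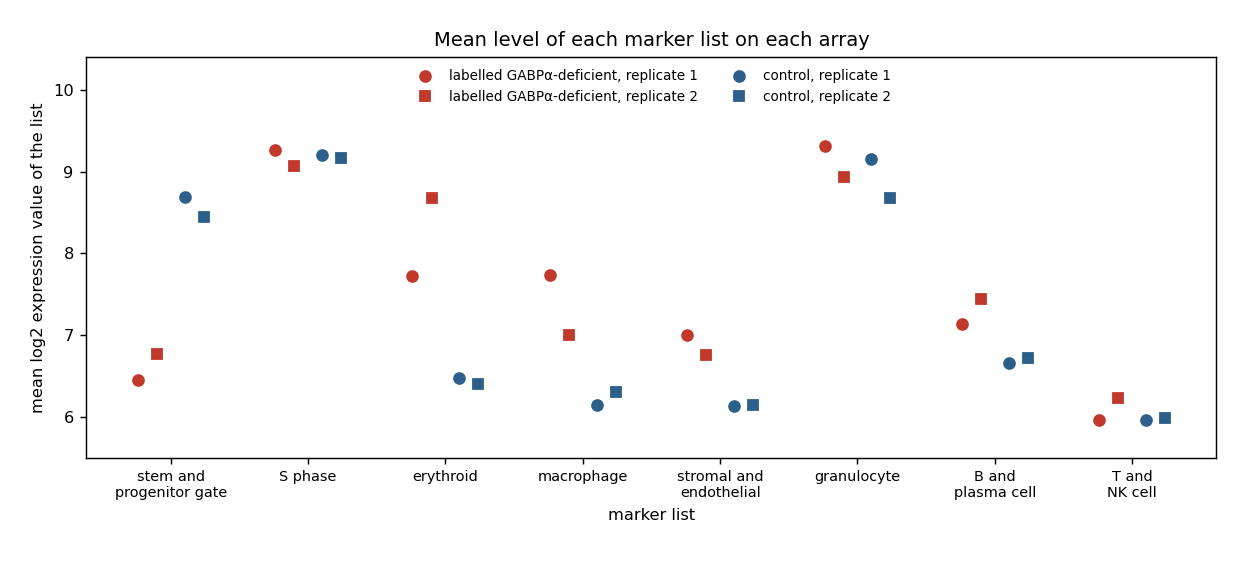
Mean log2 expression value of each marker list (vertical axis) on each array, with arrays labelled GABPα-deficient in red on the left and controls in blue on the right. The stem and progenitor list is at or below 6.76 on the arrays labelled deficient and at or above 8.44 on the controls, while the S phase list lies between 9.07 and 9.26 on all 4 arrays.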

How the data were processed

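The deposited values are log2 expression values, 1 per probe set, which the authors made with RMA and Partek, per the submitters' processing notes, without versions. RMA includes background correction, quantile normalization and a summary over probes. The table ran from 1.98 to 13.7, a log2 scale, so nothing was transformed. Neither a genome build nor an annotation is named. From 800 pg to 50 ng of RNA was amplified, per the labels' protocols. All 4 columns matched a sample. Arrays carry no read depth, and their number limits the precision.

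Symbols came from the platform annotation, updated by Entrez number through RefSeq genes of GRCm38.p6. Of 35556 probe sets, 21789 had 1 symbol, 1621 several and 12146 none. In gene lists the probe set with the highest mean stood for a gene. Groups were compared with limma 3.58.1 in R 4.3.3 (lmFit, eBayes, genotype only), with Benjamini-Hochberg adjustment over all 35556 probe sets. The fit was run on simulated data with known changes, independent normal errors and variances drawn from limma's own model. Those data held no shift of whole arrays, so the run cannot speak to the dependence on scaling described above. Nothing says the samples are separate animals, so the p-values cover the spread of these RNA samples, which may be technical. The deviations of the replicate 1 arrays from their group means had a correlation of -0.0883 between the groups, over all 35556 probe sets. With 2 arrays per group the replicate 2 deviations mirror these, so the value cannot show whether the samples were paired. The numbers were not taken as pairs.

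All members were named. From each pathway list the 4 genes with the smallest unadjusted p were named, with others as values. Members and lists were chosen with earlier results of these data known. Protein sequences were not used here, so the planned identity between members was not computed. Figures used matplotlib 3.10.9.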

Additional observations from a re-analysis of the deposited data

How the results depend on the processing

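Under all 13 alternatives to the limma fit, 0 probe sets passed an adjusted p under 0.05, and the members' adjusted p stayed at 0.25 or above. The main fit had 1865 lower and 2360 higher probe sets at an unadjusted p under 0.05, with 3 member probe sets lower, and 7 pathway genes lower and 3 higher. Probe sets higher numbered 1191 after cyclic loess, 1537 with array medians subtracted, 4601 with upper quartiles subtracted, 964 without the dimmer 50% of probe sets, and 714 to 2198 with 1 array left out, and those lower numbered 988 in an ordinary fit without moderation. Pathway genes higher numbered 1 after cyclic loess and without the dimmer 50%, 5 with upper quartiles subtracted and 1 to 7 with 1 array left out, and those lower numbered 4 in the ordinary fit and 1 to 10 with 1 array left out. Member probe sets lower numbered 1 to 4 with 1 array left out, with the count of 1 without deficient replicate 1, and 2 in the ordinary fit, where Dnmt3a had an unadjusted p of 0.0983. With a replicate block, 1341 probe sets and 1 pathway gene were higher and 2 pathway genes were lower, while 3 member probe sets were lower, both of Tet3 and that of Dnmt3b, with Dnmt3a at an unadjusted p of 0.05245, and the numbers are not shown to pair the samples.

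The sign turned in 11 of 142 member results. Mbd2 read −0.037 after cyclic loess, −0.079 with array medians subtracted and −0.055 with quantile normalization repeated, and it ran from −0.091 to 0.094 with 1 array left out. Tet1 probe set 10369688 read 0.12 with upper quartiles subtracted and 0.052 with quantile normalization repeated, and ran from −0.79 to 0.75. Uhrf1 read 0.080 with upper quartiles subtracted and ran from −0.22 to 0.094. Tet2 fell below the filter when the dimmer 50% was left out, so it has no value there. With the motif GGAA in place of CCGGAAG, 11 member promoters held a match. The cause of these shifts was not tested. With an array left out, 1 group holds a single array, which is assumed to vary like the others.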
